A study of Mus musculus with 9 samples.

Results

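Oxidative phosphorylation genes encoded in the nucleus were followed in AML12 cells, a hepatocyte line established from the liver of a mouse carrying a human growth factor transgene. They were taken by gene symbol: subunits of complex I (Nduf genes without the Ndufaf assembly factors), complex II (Sdha to Sdhd), complex III (Uqcr genes and Cyc1), cytochrome c (Cycs), complex IV (Cox4 to Cox8 genes) and complex V (Atp5 genes). The rule found 72 of the 6213 genes listed for control and fatty acid treated cells, with 34 genes in complex I, 4 in complex II, 8 in complex III, 1 for cytochrome c, 10 in complex IV and 15 in complex V. No measured value entered the rule. One symbol it takes, Atp5sl, belongs to a gene whose product is known to act in complex I assembly. Ndufa4, counted here with complex I by its symbol, is now known as a subunit of complex IV.

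There were 3 groups of 3 samples, all grown in the same serum-containing medium. Control cells received no treatment. PA/OA cells received 0.2 mM palmitic acid and 0.4 mM oleic acid for 24 h, a culture model of fatty liver. Ang(1-7) cells received the same fatty acids after 100 nM angiotensin-(1-7), a peptide of the renin-angiotensin system, given 30 min earlier. The labels name no group given only the carrier of the fatty acids, and effects of the carrier or of handling cannot be told apart from theirs. Whether the samples of a group were separate cultures is not in the labels; p-values therefore rest on a spread between samples that may be technical.

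The respiratory chain passes electrons from NADH (complex I) and succinate (complex II) through complex III and cytochrome c to oxygen at complex IV, and pumps protons across the inner mitochondrial membrane. Complex V, the ATP synthase, uses the returning protons to make ATP. Hepatocytes are rich in mitochondria and oxidise fatty acids there, so the chain receives electrons from beta-oxidation as well as from sugar. Most subunits are encoded in the nucleus and imported. The remaining core subunits are encoded by mitochondrial DNA and were not analysed here.

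Listed counts came to between 24588312 and 28704499 reads per library and table. Of 16 hepatocyte markers, 7 were listed with the controls; keratins Krt8 and Krt18 made up most of their sum, while albumin, the defining product of hepatocytes, had only 172 to 325 counts in the control libraries. The second Ang(1-7) library stood apart: across genes, its log2 counts correlated with those of the other 8 libraries at r = 0.911 to 0.933, against at least 0.968 among those 8. Ang(1-7) libraries 2 and 3 also held counts above 0 for 14 of 14 listed neural markers, summing to 232 and 207 CPM (counts relative to library size), against 5 or 6 of 14 and a sum of 129 to 139, most of it Mbp, in the first Ang(1-7) library and the PA/OA libraries. Neurofilament light chain (Nefl), for example, had 0 counts in those 4 libraries and 923 and 477 in Ang(1-7) libraries 2 and 3. For the Ang(1-7) comparisons, call counts, medians and the sum over all members are therefore given with and without the second library. Calls against control are also given without both libraries 2 and 3. Sums by complex are given with all 3 libraries only.

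Levels below are CPM scaled by edgeR's TMM factors over transcripts listed for all 9 libraries. A change is a log2 difference between groups from edgeR's quasi-likelihood fit of the 2 groups compared, with its standard error (SE). A gene was called changed at a Benjamini-Hochberg adjusted p under 0.05 over all genes tested. In bulk RNA, fewer cells of a kind and less RNA per cell cannot be told apart.

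Per kilobase of transcript, subunits of complexes V and IV led in control cells. Atp5b stood at 1960 CPM per kb, Atp5a1 at 1397, Cox8a at 1075, Cox6b1 at 882 and Cox6c at 827. Ndufa4, counted here with complex I, followed at 720. The highest complex III member was Uqcr11 at 465, and the highest complex II member was Sdhd at 272. Atp5a1 and Atp5b alone, the alpha and beta subunits of the ATP synthase head, made up 33% of the summed CPM of the members in control cells. Levels of genes with several RefSeq transcripts must be read with care. The 43 members with 1 RefSeq transcript had a median control count of 6495 and none under 1000, whereas the 29 with 2 or more had a median of 781, and 16 of them lay under 1000. Atp5c1, which encodes the central stalk subunit gamma, was listed at 1.95 CPM per kb, and Uqcrq at 6.75, far below subunits of the same complexes. Within a gene, groups can still be compared for the transcripts listed, which may be only part of those of the gene.

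With PA/OA, members of the chain stood lower than in control by a small amount. The count summed over 71 members listed for all 9 libraries was 22491, 21439 and 21539 CPM in the controls and 19627, 18913 and 19600 with PA/OA. The means were 21823 ± 581 (SD, n = 3) and 19380 ± 405 (SD, n = 3), a difference of -11.2%, and the groups did not overlap. By complex the difference in mean was -11.2% for complex I, -3.93% for complex II, -10.1% for complex III, -14.6% for cytochrome c, -11% for complex IV and -12.1% for complex V. Complex II was the exception in overlap as well, in this comparison of PA/OA with control. Its 4 genes summed to 982, 1006 and 984 CPM in control and 925, 901 and 1030 with PA/OA, so that 1 treated library lay above all controls. Marker sums of other liver cells moved between the same groups. The 4 of 8 cholangiocyte markers listed, mostly keratins Krt7 and Krt19, summed to 1993 to 2135 CPM in control and 1568 to 1711 with PA/OA, without overlap. The other listed ones, Sox9 and Spp1, did not fall with the keratins. Sox9 had 650, 579 and 482 counts in control and 440, 1199 and 797 with PA/OA. Spp1 had 57, 103 and 106 counts in control and 102, 214 and 187 with PA/OA. The 3 of 10 macrophage markers listed, mostly Cd14, summed to 587 to 626 CPM in control and 674 to 816 with PA/OA, also without overlap. The other listed ones, Cd68 and Lyz2, overlapped between the groups. Cd68 had 39, 112 and 46 counts in control and 96, 77 and 126 with PA/OA. Lyz2 had 62, 26 and 150 counts in control and 106, 35 and 68 with PA/OA. Each of these 7 genes had counts in every library. The hepatocyte marker sum overlapped, at 22784 to 23911 and 22526 to 23939 CPM, but Krt8 and Krt18 made up most of it. Single hepatocyte markers moved in both directions. Ttr had 422, 233 and 417 counts in control and 125, 111 and 64 with PA/OA. Alb had 325, 247 and 172 counts in control and 208, 151 and 80 with PA/OA, with overlap. Hnf4a had 246, 251 and 158 counts in control and 157, 157 and 111 with PA/OA. Apob had 2455, 2588 and 2486 counts in control and 4401, 5079 and 5058 with PA/OA. Trf had 13356, 11934 and 14074 counts in control and 18142, 17068 and 15270 with PA/OA. The part of all these markers in the members' values was not tested.

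**Figure D1:**
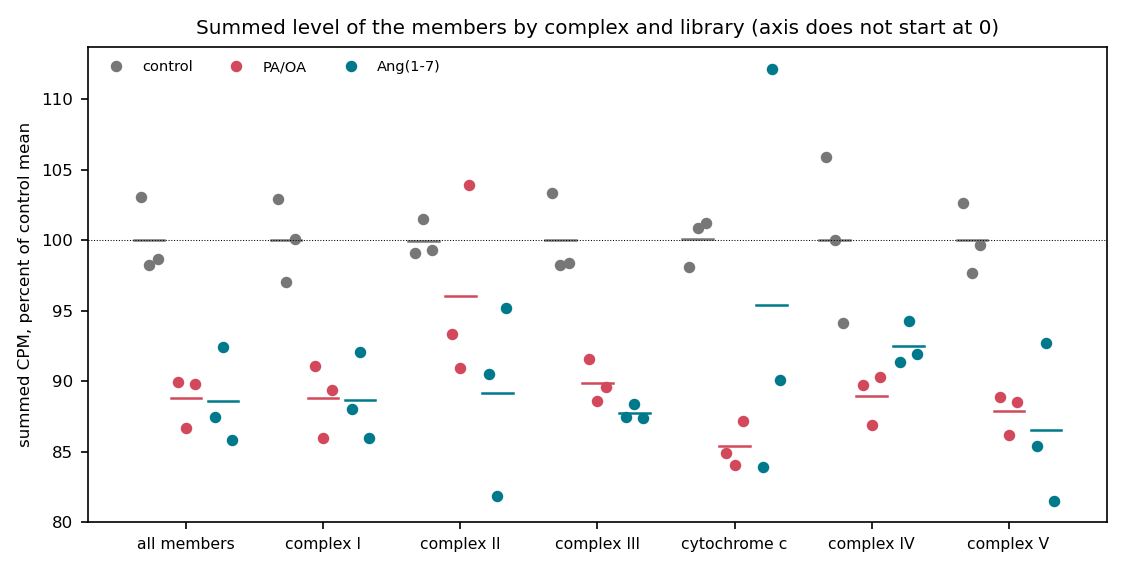
Summed CPM of the members in each library as a percentage of the control mean, for all members and for each complex; points are libraries, short lines are group means, and the axis does not start at 0. PA/OA libraries lie below every control library except in complex II, where 1 PA/OA library lies above them.

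Gene by gene, 9 of 72 members fell with PA/OA and 0 rose. Over all 6213 genes, 2.24% fell and 2.82% rose. The 9 were Cox7a2, Atp5b, Atp5a1, Atp5e, Atp5k, Cycs, Uqcr11, Ndufb7 and Ndufb10, with falls of 0.19 to 0.41 on the log2 scale. edgeR gave 31 members an unadjusted p under 0.05, all with lower levels, as it did 8.92% of all genes in that direction. In all, 65 of 72 members (90.3%) had a negative change, against 48% of all genes. The 3 PA/OA libraries lay below the 3 controls, with no overlap, for 38 of 72 members, and above them for 0, where 11.6% and 12.2% of all genes did so. The median change was -0.19 over the members and 0.01 over all genes tested, and the middle 50% of members lay between -0.31 and -0.12. For scale, 1 member, Atp5j, was lowered at least 2-fold, and it was read from few counts.

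**Figure D2:**
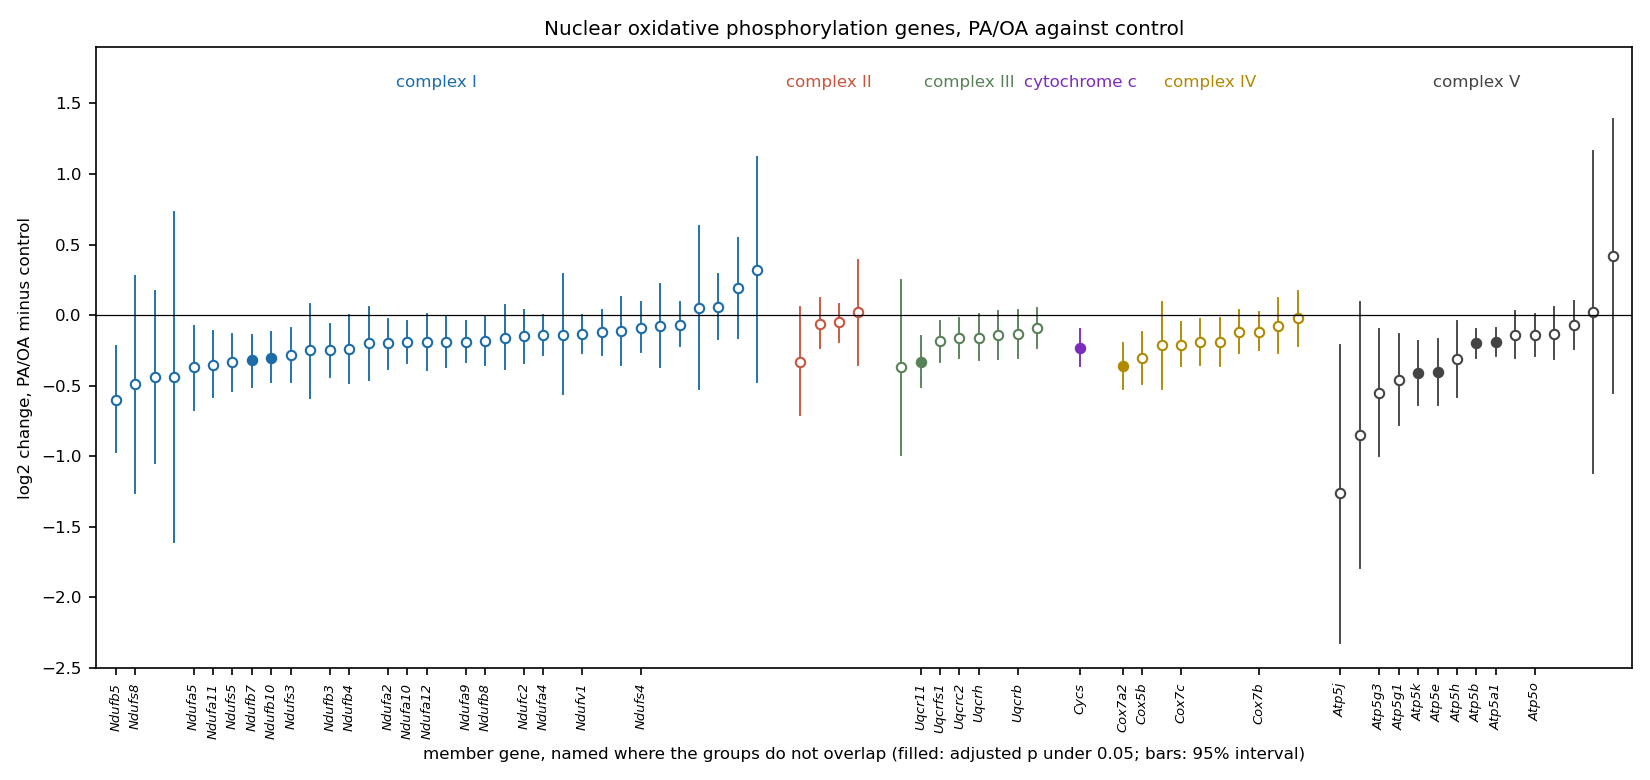
Log2 change between PA/OA and control for each of the 72 members, grouped by complex; points are edgeR estimates, bars 95% intervals, and filled points have an adjusted p under 0.05; names are given for members whose groups do not overlap. Points lie below 0 for 65 members, and the wide intervals belong to members read from few counts.

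The number of calls rests on few libraries and on the fit, while the median moved less. Without control 1 or without PA/OA 2 a single member, Cox7a2, was called, where 0.499% and 0.95% of all genes were called lower. Without PA/OA 3 the calls were Atp5b and Cox7a2 (0.644% of all genes), and without control 3 they were Atp5e, Cox7a2 and Cox8a (1.24%). Without control 2 there were 6 calls (1.67%). Those shares are below the 2.24% with all libraries. The median over all 6 omissions stayed between -0.14 and -0.20. A fit over all 9 libraries, whose spread includes the Ang(1-7) libraries, called 0 of 71 members lower, and only 0.0332% of all genes. DESeq2 called 16 of 72 lower, as it did 4.97% of all genes.

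Transcript length moved with the change. Members are short, with a median of 760 bases against 2563 for all genes with a known length. Over all genes under 800 bases the median change was -0.15, and 30.9% of those 408 genes had non-overlapping, lower PA/OA libraries; the 37 members in that class had a median of -0.19 and 54.1%. Genes of 3000 bases and over had a median of 0.10. At 800 to 1500 bases the members' median was -0.19 against -0.09 for all genes, and at 1500 to 3000 bases it was -0.15 against -0.01. Within the members, change and length had a Spearman rho of 0.03 across 72 genes, which share libraries and are not independent. With a correction for length and GC content, 3 members were called lower (Atp5a1, Atp5b and Cycs), where 1.85% of all genes were, and the median was -0.07. The other 6 members called without it had corrected changes of -0.20 for Cox7a2, -0.19 for Atp5e, -0.17 for Atp5k, -0.16 for Ndufb7, -0.16 for Ndufb10 and -0.12 for Uqcr11, with edgeR adjusted p-values from 0.156 to 0.444.

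**Figure D3:**
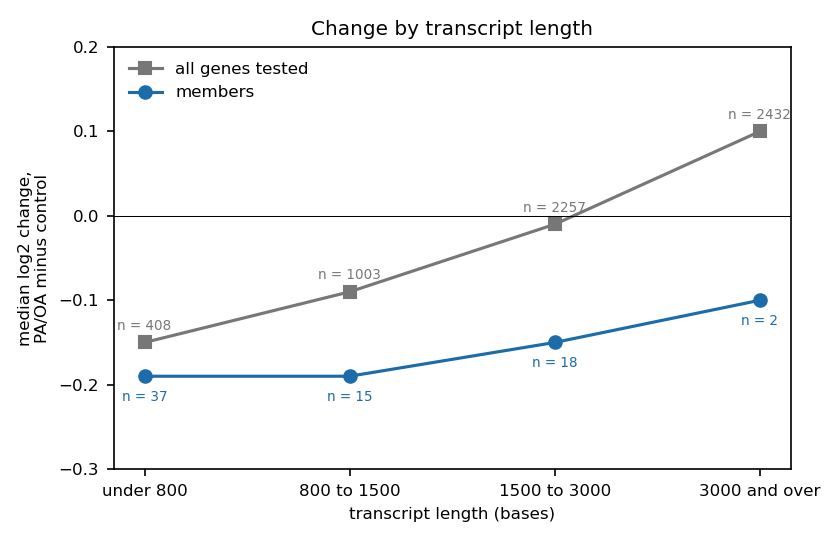
Median log2 change between PA/OA and control by transcript length, for all genes tested and for the members; numbers beside the points give the genes in each class. All genes go from -0.15 in the shortest class to 0.10 in the longest, and members lie below all genes in each class, of which the last holds only 2 members.

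Complex V gave 4 of the 9 calls. Atp5b, the catalytic beta subunit, stood at 3860, 3623 and 3783 CPM in control and 3263, 3233 and 3345 with PA/OA, a fall of 0.20 ± 0.05 (SE; edgeR adjusted p = 0.0195). Atp5a1, the alpha subunit beside it, stood at 3503, 3377 and 3473 CPM in control and 3086, 2992 and 3045 with PA/OA, a fall of 0.19 ± 0.05 (SE; edgeR adjusted p = 0.0275). In both genes every PA/OA library lay below every control, and the 2 subunits of the catalytic ring moved by nearly the same amount. Atp5e and Atp5k, both small subunits, had larger values with larger errors. Atp5e, the epsilon subunit of the central stalk, stood at 151, 118 and 114 CPM in control and 103, 97.6 and 89.9 with PA/OA, a fall of 0.40 ± 0.11 (SE; edgeR adjusted p = 0.0429). Atp5k, the membrane subunit e at the interface of ATP synthase dimers, stood at 151, 113 and 125 CPM in control and 101, 96.5 and 95.8 with PA/OA, a fall of 0.41 ± 0.11 (SE; edgeR adjusted p = 0.0332). For both the first control library was the highest, and both calls ended with the length and GC correction, at -0.19 and -0.17.

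The genes Atp5g1, Atp5g2 and Atp5g3 encode the same mature ring subunit c from different precursors. Atp5g2, by far the most counted, stood at 496, 520 and 387 CPM in control and 454, 412 and 421 with PA/OA, so the groups overlapped, and its change was -0.13 ± 0.09 (SE; edgeR adjusted p = 0.477). Atp5g1 stood at 44.4, 35.7 and 39.6 CPM in control and 32, 27.3 and 28 with PA/OA, without overlap, with a change of -0.46 ± 0.15 (SE; edgeR adjusted p = 0.0953). Atp5g3 had a change of -0.55 ± 0.22 (SE; edgeR adjusted p = 0.154), also without overlap, at 20.8, 19.7 and 19.7 CPM in control and 16.9, 12 and 12.3 with PA/OA. DESeq2 called Atp5g1 lower, but neither of the minor copies passed the threshold in edgeR.

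Peripheral stalk and other membrane subunits did not pass it either. Atp5h, stalk subunit d, stood at 56.5 ± 4.03 CPM in control and 45.7 ± 3.17 with PA/OA (SD, n = 3), a change of -0.31 ± 0.13 (SE). Atp5o, the oligomycin sensitivity conferring protein, stood at 324 ± 5.24 and 295 ± 16.2 CPM (SD, n = 3), a change of -0.14 ± 0.07 (SE), and for both genes the groups did not overlap. Atp5j2 and Atp5l, subunits f and g, had control means of 390 and 259 CPM and changes of -0.14 and -0.07 with overlap. Positive values came only from Atp5c1 (0.42 ± 0.46, SE) and Atp5f1 (0.02 ± 0.55, SE), each read from few counts; Atp5f1 had 48, 62 and 72 counts in control and 101, 26 and 52 with PA/OA. Atp5sl, the assembly factor by function, had 6.02 ± 1.71 CPM in control (SD, n = 3) and a change of -0.85 ± 0.45 (SE). Atp5j, coupling factor 6, had the most negative value of all members, -1.26 ± 0.51 (SE; edgeR adjusted p = 0.163), at 5.18, 3.87 and 4.36 CPM in control and 0.851, 2.22 and 2.52 with PA/OA.

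Complex IV, cytochrome c oxidase, gave the member with the lowest adjusted p. Cox7a2, the widely expressed form of small subunit 7a, stood at 288, 287 and 297 CPM in control and 213, 225 and 244 with PA/OA. It fell by 0.36 ± 0.08 (SE; edgeR adjusted p = 0.00998), and it was called in each of the 6 fits that left out 1 library. The call was lost with the length and GC correction (-0.20; edgeR adjusted p = 0.156). All 10 complex IV members had negative changes, and 4 had non-overlapping groups. Cox5b, a zinc-binding matrix subunit, stood at 393, 303 and 324 CPM in control and 294, 273 and 263 with PA/OA, a change of -0.30 ± 0.09 (SE) just outside the threshold (edgeR adjusted p = 0.0505). Cox7c (-0.21), Cox6c (-0.19) and Cox8a (-0.19), short membrane subunits with control means of 366, 416 and 591 CPM, had unadjusted p-values of 0.0115, 0.0241 and 0.0324 in edgeR and did not pass. Cox8a, the highest complex IV member per kilobase, stood at 636, 635 and 501 CPM in control and 545, 488 and 525 with PA/OA, so its groups overlapped. Cox7b stood at 685, 695 and 720 CPM in control and 606, 667 and 669 with PA/OA, apart but close, with a change of -0.12 ± 0.06 (SE; edgeR adjusted p = 0.344). Cox5a, Cox6a1 and Cox6b1, with control means of 217, 233 and 545 CPM, had changes of -0.02, -0.08 and -0.12. Cox4i1, a subunit that joins early in assembly, had 50.5 ± 9.21 CPM in control (SD, n = 3) and a change of -0.21 ± 0.15 (SE).

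Cycs, the soluble electron carrier between complexes III and IV, stood at 573, 589 and 591 CPM in control and 496, 491 and 509 with PA/OA. Both groups were tight and apart, and Cycs fell by 0.23 ± 0.06 (SE; edgeR adjusted p = 0.0382). It was also among the 3 members called after the length and GC correction. Its transcript is 3123 bases long, which sets it apart from the short members.

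In complex III all 8 members had negative changes and 5 had non-overlapping groups, with a median of -0.16. Uqcr11, the smallest subunit, stood at 225, 191 and 205 CPM in control and 175, 165 and 155 with PA/OA, a fall of 0.33 ± 0.09 (SE; edgeR adjusted p = 0.0329). With the length and GC correction its change was -0.12 and was no longer called (edgeR adjusted p = 0.444). No other member passed. Uqcrfs1, the Rieske iron-sulfur protein, stood at 340, 355 and 355 CPM in control and 309, 300 and 319 with PA/OA, without overlap, with a change of -0.18 ± 0.07 (SE; edgeR adjusted p = 0.14). The haem subunit Cyc1 had -0.14 ± 0.08, and the core proteins Uqcrc1 and Uqcrc2 had -0.09 ± 0.07 and -0.16 ± 0.07 (SE). The hinge protein Uqcrh stood at 259, 240 and 231 CPM in control and 220, 216 and 221 with PA/OA (-0.16 ± 0.08, SE), and the small subunit Uqcrb had -0.13 ± 0.08, both without overlap. Uqcrc2 had none either, at 428 ± 12.8 CPM in control and 384 ± 11.7 with PA/OA (SD, n = 3). Uqcrq, at 10.3 ± 3.09 CPM in control (SD, n = 3), had -0.37 ± 0.30 (SE).

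In complex I, 2 of 34 members fell, 30 had negative changes and 19 had non-overlapping, lower PA/OA libraries. Ndufb7 stood at 245, 201 and 209 CPM in control and 179, 180 and 165 with PA/OA, a fall of 0.32 ± 0.09 (SE; edgeR adjusted p = 0.0396). Ndufb10 stood at 179, 169 and 171 CPM in control and 145, 140 and 138 with PA/OA, a fall of 0.30 ± 0.08 (SE; edgeR adjusted p = 0.0471). With the length and GC correction both had -0.16 and neither was called. Both are accessory subunits of the membrane arm that carry paired cysteine motifs of the kind oxidised on import into the intermembrane space. Ndufs5, an accessory subunit with the same kind of motif, stood at 119, 114 and 115 CPM in control and 88.1, 93.7 and 94.4 with PA/OA, and at -0.33 ± 0.10 (SE) it lay just outside the threshold (edgeR adjusted p = 0.0512). Ndufb5, at 30, 26.6 and 29.5 CPM in control and 17.9, 17.1 and 22 with PA/OA, also lay near it (-0.60 ± 0.18, SE; edgeR adjusted p = 0.0593). Ndufa8, which has such motifs too, had 104 ± 4.16 CPM in control (SD, n = 3) and a change of -0.16 ± 0.11 (SE).

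Core subunits of complex I, which hold the flavin and the iron-sulfur clusters or line the route to ubiquinone, had 0 of 6 listed members called in edgeR, with 2 at an unadjusted p under 0.05 (Ndufs3 and Ndufv1). DESeq2 called Ndufs3 lower, and limma-voom called 0 of them. Ndufv1, which binds NADH and flavin, stood at 701, 650 and 676 CPM in control and 643, 595 and 615 with PA/OA, a change of -0.13 ± 0.06 (SE; edgeR adjusted p = 0.258). Ndufs3, in the arm that reaches into the matrix, stood at 167, 158 and 153 CPM in control and 137, 139 and 118 with PA/OA, without overlap, with a change of -0.28 ± 0.09 (SE; edgeR adjusted p = 0.0882). Ndufs7, at 28.6, 19.5 and 20.2 CPM in control, had -0.14 ± 0.20 (SE). Ndufs8 and Ndufs1, at 6.23 and 1.05 CPM per kb, had -0.49 ± 0.37 and -0.44 ± 0.56 (SE), with errors near or above the change; the groups did not overlap for Ndufs8, which had a control mean of 6.12 CPM. Positive values, none called, belonged to Ndufa3 (0.06), Ndufb11 (0.05), Ndufb2 (0.32) and Ndufv3 (0.19). Ndufa3, at 73.1 ± 2.5 CPM in control (SD, n = 3), was the only member with a mean of at least 1000 counts that had one; Ndufb11, Ndufb2 and Ndufv3 had control means of 12.6, 5.15 and 29.2 CPM.

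The accessory subunits of complex I other than Ndufb7 and Ndufb10 did not pass the test in edgeR with all libraries. DESeq2 also called Ndufa9, Ndufa11, Ndufb5 and Ndufs5 lower. Ndufa4, the highest by level per kilobase, stood at 451, 448 and 420 CPM in control and 411, 382 and 405 with PA/OA (-0.14 ± 0.07, SE; edgeR adjusted p = 0.263), without overlap. Ndufa9, which helps join the peripheral to the membrane arm, stood at 314, 320 and 319 CPM in control and 281, 280 and 278 with PA/OA. Its libraries were tight within each group, and its change was -0.19 ± 0.07 (SE; edgeR adjusted p = 0.135). Ndufa11 stood at 88.4, 92.7 and 98.2 CPM in control and 83.3, 70.9 and 66.2 with PA/OA (-0.35 ± 0.11, SE; edgeR adjusted p = 0.0875). Ndufb3 stood at 159, 152 and 164 CPM in control and 145, 130 and 125 with PA/OA (-0.25 ± 0.09, SE; edgeR adjusted p = 0.123). Ndufa10, Ndufa12, Ndufa2, Ndufa5, Ndufb4, Ndufb8, Ndufc2 and Ndufs4 also had non-overlapping, lower PA/OA libraries, with changes of -0.19, -0.19, -0.20, -0.37, -0.24, -0.18, -0.15 and -0.09. Their control means ran from 54.1 CPM for Ndufa5 to 315 for Ndufa10. Overlap remained for Ndufa1 (98.2 ± 15.9 CPM in control), Ndufa6 (215 ± 20.5), Ndufa7 (45.2 ± 9.2), Ndufb6 (78.7 ± 6.46), Ndufb9 (304 ± 15.6) and Ndufc1 (39.2 ± 1.02; SD, n = 3), whose changes were -0.20, -0.19, -0.25, -0.11, -0.07 and -0.08. Ndufab1, the mitochondrial acyl carrier protein and thus also a factor of fatty acid synthesis in mitochondria, had -0.44 ± 0.29 (SE) at 28.9, 21.5 and 10.3 CPM in control, and its groups overlapped.

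Complex II, which is also an enzyme of the tricarboxylic acid cycle, had 0 called members in edgeR, 0 at an unadjusted p under 0.05 and 0 with non-overlapping groups; DESeq2 and limma-voom called 0 as well. Sdha, the flavoprotein, stood at 576, 598 and 606 CPM in control and 546, 562 and 611 with PA/OA. Its change was -0.05 ± 0.07 (SE), with a 95% interval from -0.19 to 0.08. Sdhd, a membrane anchor with 335 ± 17.4 CPM in control (SD, n = 3), had -0.06 (interval -0.23 to 0.12), and Sdhc, the other anchor, 0.02. The iron-sulfur subunit Sdhb, at 36.9 ± 6.89 CPM in control (SD, n = 3), had -0.33 ± 0.18 (SE; edgeR adjusted p = 0.355). In Ang(1-7) cells, which received the same fatty acids, the complex II sum differed from the control mean by -10.8% with all 3 libraries. Those libraries summed to 897, 811 and 943 CPM, the second being the lowest. The difference between complex II and the other complexes was not tested.

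**Figure D4:**
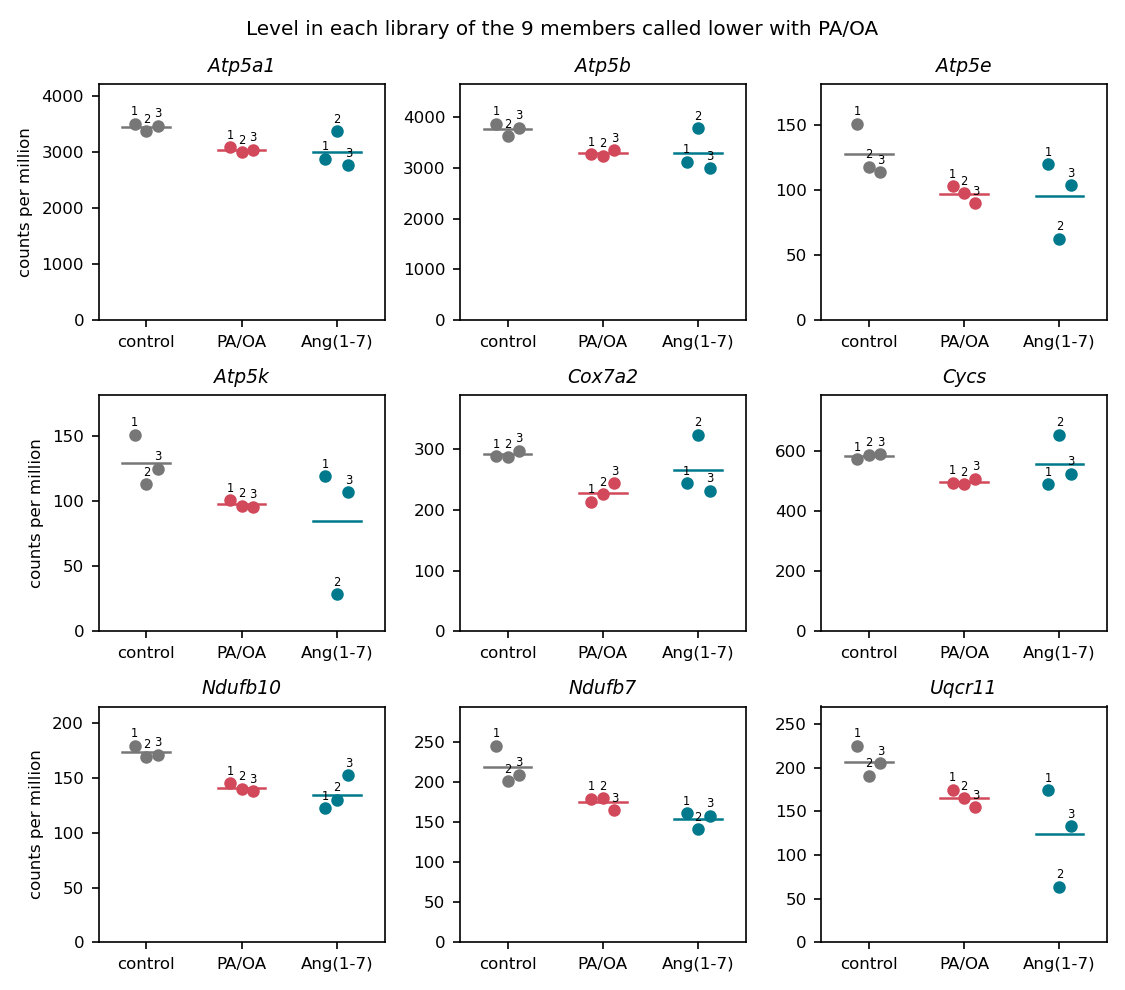
CPM of the 9 members called lower with PA/OA, in each library; numbers mark the replicate, short lines the group means, and each axis starts at 0. PA/OA libraries lie below all control libraries in each panel, while the second Ang(1-7) library lies far from the other 2 for Atp5k and Uqcr11.

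Promoters of the members called lower are shown, with letters bound by known regulators of respiratory or housekeeping genes marked. NRF-1 and ETS-family factors such as GABP (NRF-2) are such regulators, and Sp1 binds many promoters of housekeeping genes. RefSeq promoter windows on GRCm38.p6, each 250 bases before to 50 after a start site, were matched for 58 of 72 members (62 promoters) and for 8 of the 9 called, Atp5a1 being the ninth. The motifs searched, on both strands, were GCATGCGC (NRF-1), CCGGAAG (ETS), AAGATGGC (YY1), TCAAGGTCA (ERR) and GGGCGG (Sp1). The letters printed are the 120 bases before the start site, 5′ to 3′ on the gene's strand, with matches in capitals. Windows lie at chr5:108434400-108434519 (minus strand) for Atp5k, chr6:50566570-50566689 (minus) for Cycs, chr10:80406822-80406941 (minus) for Uqcr11, chr8:83566638-83566757 (plus) for Ndufb7, chr2:174464102-174464221 (minus) for Atp5e chr9:79759854-79759973 (minus) for Cox7a2, chr10:128083187-128083306 (plus) for Atp5b and chr17:24724424-24724543 (minus) for Ndufb10.
Atp5k: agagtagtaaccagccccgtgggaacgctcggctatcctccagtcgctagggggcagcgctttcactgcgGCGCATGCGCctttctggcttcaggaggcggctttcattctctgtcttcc
Cycs: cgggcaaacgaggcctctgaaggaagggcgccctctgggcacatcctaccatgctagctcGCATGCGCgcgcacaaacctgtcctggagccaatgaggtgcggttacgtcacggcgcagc
Uqcr11: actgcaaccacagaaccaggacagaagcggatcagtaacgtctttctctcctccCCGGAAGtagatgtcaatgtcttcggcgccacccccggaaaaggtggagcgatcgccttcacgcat
Ndufb7: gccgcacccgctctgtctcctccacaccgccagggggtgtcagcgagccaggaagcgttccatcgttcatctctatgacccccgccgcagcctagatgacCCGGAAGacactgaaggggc
Atp5e: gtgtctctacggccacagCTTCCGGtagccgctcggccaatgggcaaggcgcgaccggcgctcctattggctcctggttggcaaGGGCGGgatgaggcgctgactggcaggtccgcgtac
Cox7a2: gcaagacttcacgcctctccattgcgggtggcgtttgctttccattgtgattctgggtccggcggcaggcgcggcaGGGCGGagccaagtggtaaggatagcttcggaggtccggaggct
Atp5b: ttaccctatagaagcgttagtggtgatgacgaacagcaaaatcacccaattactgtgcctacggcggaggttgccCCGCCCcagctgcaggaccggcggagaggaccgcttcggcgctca
Ndufb10: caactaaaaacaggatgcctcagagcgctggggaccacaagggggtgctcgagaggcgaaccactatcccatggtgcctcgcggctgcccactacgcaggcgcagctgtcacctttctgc

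Capitals in Atp5k mark 2 overlapping NRF-1 matches, 1 on each strand, and those in Cycs mark 1 NRF-1 match. Uqcr11 and Ndufb7 carry an ETS match as written, Atp5e an ETS match on the reverse strand and an Sp1 match, and Cox7a2 an Sp1 match. Atp5b carries an Sp1 match on the reverse strand, and Ndufb10 has 0 matches to any of the 5 motifs in these letters. Over the whole 300-base windows, NRF-1 letters were in 17.7% of member promoters, 5.38% of those of all listed genes and 2.71% of all 32851 promoters. ETS letters were in 25.8%, 20.3% and 8.86%, and YY1 letters in 12.9%, 5.1% and 2.75%. ERR letters were in 3.23%, 0.248% and 0.423%, that is in Atp5g3 and Sdhd among the members. Sp1 letters were in 38.7%, 65.4% and 35.7%. In the 8 promoters of called members, NRF-1 letters were in 37.5%, ETS letters in 50% and Sp1 letters in 50%. YY1 and ERR letters were in 0% of those 8. The share of all genes with any of the 5 motifs was not counted. These shares describe letters in the windows and are no measure of binding.

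Other genes that serve the chain were counted by lists. Of 39 tested assembly factors, 1 fell and 0 rose, with a median of -0.07; at 2.56% called lower against 2.24% of all genes, the list was near the background. The one was Cox14, a factor for complex IV assembly, at -0.52 ± 0.10 (SE; edgeR adjusted p = 0.00322). Of 22 tested genes of protein import and inner membrane organisation, 3 fell and 0 rose, with a median of -0.25 and 20 negative changes. They were the chaperonin Hspe1 (-0.38 ± 0.07), the import receptor Tomm22 (-0.32 ± 0.07) and the small chaperone Timm8b (-0.31 ± 0.09, all SE). Of 7 tested carriers and porins, 1 fell and 1 rose. The adenine nucleotide carrier Slc25a4 had -0.21 ± 0.05 (SE; edgeR adjusted p = 0.0204), and the uncoupling protein family member Ucp2 had 1.11 ± 0.31 (SE; edgeR adjusted p = 0.0439).

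The tricarboxylic acid cycle and pyruvate dehydrogenase list had 0 of 17 called in edgeR, 2 at an unadjusted p under 0.05, a median of -0.12 and 15 negative changes. Pdhx, the binding protein of the pyruvate dehydrogenase complex, had the lowest p (-0.22 ± 0.09, SE; edgeR adjusted p = 0.174). Regulators of mitochondrial biogenesis and mitochondrial DNA maintenance had 0 of 9 called, 1 at an unadjusted p under 0.05 and a median of 0.17. Pprc1, a coactivator of respiratory genes, had 1.13 ± 0.41 (SE; edgeR adjusted p = 0.12). Nrf1, which encodes NRF-1, and Yy1, named after their values were seen because their motifs were searched, had 0.03 ± 0.32 and -0.03 ± 0.12 (SE).

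Adding Ang(1-7) before the fatty acids was compared with the fatty acids alone. None of the 72 members was called: edgeR called 0 in either direction, as for all 9261 genes tested (0%), 1 member had an unadjusted p under 0.05 (2.55% of all genes), and DESeq2 and limma-voom called 0 members. The median was -0.01 over members and -0.01 over all genes. Ang(1-7) libraries lay wholly below PA/OA for 6 members (Atp5g1, Ndufb2, Ndufb7, Ndufs7, Ndufv1 and Uqcrfs1) and wholly above for 3 (Ndufa4, Uqcrb and Uqcrq), where 6.37% and 4.6% of all genes did so. Without the second library, 12 members lay wholly below and 10 wholly above PA/OA, where 10.7% and 9.42% of all genes did so, the median was 0.01, and edgeR again called 0 of 72 members and 0% of all genes. The changes of the 9 in the full comparison ran from -0.59 to -0.19 and from 0.38 to 0.50, all at an edgeR adjusted p of 0.965. Negative changes numbered 37 of 72, against 50.9% of all genes. Another 8 symbols that fit the rule were listed only here, each at 71 counts or fewer per library; 5 were tested and 0 called. The sum over 71 members was 19088, 20166 and 18729 CPM with Ang(1-7), with a mean of 19328 ± 748 (SD, n = 3) beside 19380 ± 405 (SD, n = 3) with PA/OA; without the second library the mean was 18908.

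Uqcrb, a small subunit at the ubiquinone site of complex III, had that single p. It stood at 188, 187 and 190 CPM with PA/OA and 213, 295 and 225 with Ang(1-7), a difference of 0.38 ± 0.14 (SE; edgeR adjusted p = 0.965). The second library was the highest, and without it the difference was 0.23 ± 0.09 (SE; edgeR adjusted p = 1). Ndufa4 stood at 411, 382 and 405 CPM with PA/OA and 417, 814 and 457 with Ang(1-7). Its difference of 0.50 ± 0.23 (SE) was 0.14 ± 0.08 without the second library. A missed threshold here does not show that the groups were alike.

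The second Ang(1-7) library differed from libraries 1 and 3 in many members. Among 55 members with a mean of at least 1000 counts, 25 (45.5%) lay over 0.5 on the log2 scale from the mean of the other 2 libraries of the group, 17 lower and 8 higher, with a range from -1.96 to 1.06. Over all genes at that depth the share was 31.5%, and in each control and PA/OA library it was 0 of 55 members. Atp5k stood at 119, 28.5 and 107 CPM in Ang(1-7) libraries 1 to 3, Atp5g2 at 461, 138 and 439, and Uqcr11 at 174, 63.9 and 133. Cyc1 stood at 208, 98.5 and 229 CPM. In the other direction, Ndufa12, an accessory subunit of complex I, stood at 97, 207 and 101 CPM, Ndufa10 at 253, 444 and 248, and Cycs at 490, 655 and 526. Subunits of 1 complex went both ways within that library, and the sum of complex III stayed close, at 1905, 1925 and 1903 CPM. The same library held 1135 CPM of cholangiocyte markers against 1562 to 1708 in the other 5 of that table, and the neural marker sums given above. Their part in the members' values was not tested.

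**Figure D5:**
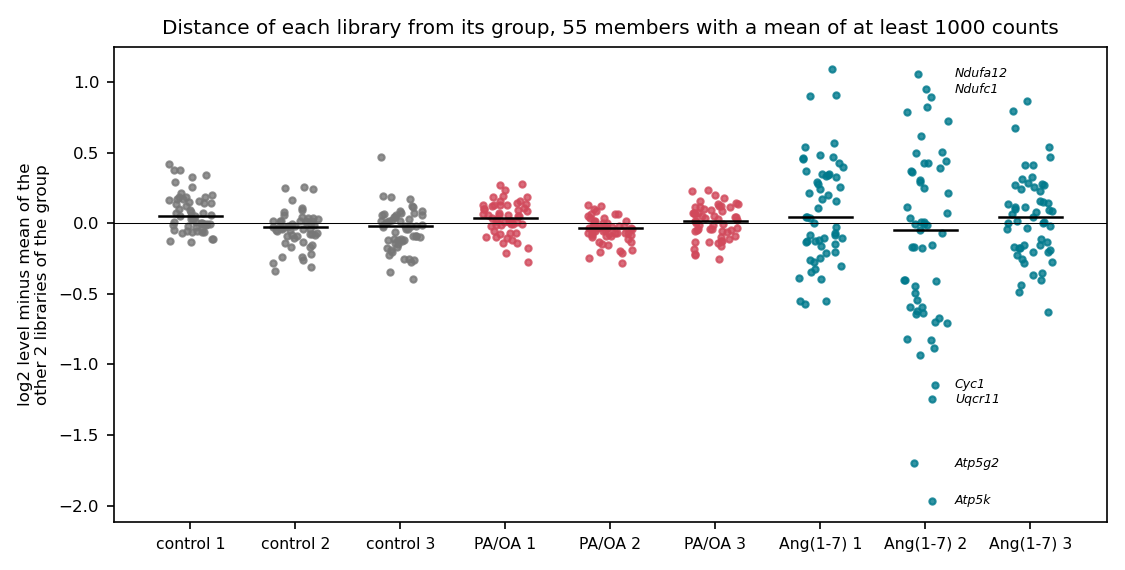
Log2 level of each of 55 well-counted members in a library minus its mean in the other 2 libraries of the same group; points are genes and black lines medians. Control and PA/OA libraries stay within 0.5 of their group, and the second Ang(1-7) library spreads from -1.96 (Atp5k) to 1.06 (Ndufa12); libraries 1 and 3 are drawn against a mean that includes it.

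Against control, Ang(1-7) cells shared the fatty acids, and this comparison shares its controls with the PA/OA comparison. edgeR called 0 of 71 members lower (0% of all genes) or higher (0.245%). It gave 12 members an unadjusted p under 0.05 (16.9%), all with lower levels. Of all genes, 14.9% had such a p in either direction, and the share with lower levels alone was not counted. DESeq2 called 2 lower (Atp5g1 and Ndufb7; 2.19% of all genes), and a fit over all 9 libraries 1 (Ndufb7; 0.547% of all genes). The median was -0.21 over members (-0.32 without the first Ang(1-7) library) and 0.02 over all genes; 60 of 71 members (84.5%) were negative, against 48.4% of all genes. Groups did not overlap for 27 members lower and 1 higher (Ndufa3, 0.14 ± 0.12, SE), where 13.3% and 13.2% of all genes did so. Of the 27, 15 were in complex I, 2 in complex II (Sdhb and Sdhd), 3 in complex III, 2 in complex IV and 5 in complex V, with edgeR adjusted p-values from 0.137 (Ndufb7, -0.53 ± 0.12, SE) to 0.479 (Cox4i1, -0.27 ± 0.17, SE). Atp5g1, the minor copy of the ring subunit, had the largest change of them, -0.82 ± 0.23 (SE; edgeR adjusted p = 0.173), and -0.63 ± 0.17 (SE; edgeR adjusted p = 0.0235) without the second Ang(1-7) library. The members' sum differed from the control mean by -11.4% in these cells, by -13.4% without the second library, and by -11.2% with PA/OA alone. By complex, with all 3 Ang(1-7) libraries, the difference was -11.3% for complex I, -10.8% for complex II and -12.3% for complex III. It was -4.67% for cytochrome c, -7.48% for complex IV and -13.5% for complex V. These values include the second library, which had the lowest sum of the 3 for complex II and the highest for the others. Cytochrome c stood at 490, 655 and 526 CPM in Ang(1-7) libraries 1 to 3. Complex II summed to 897, 811 and 943 CPM with Ang(1-7), below its controls at 982, 1006 and 984.

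Without the second Ang(1-7) library, 13 of 71 members fell, where 4.96% of all genes did, and 43 members had non-overlapping, lower libraries, where 20.8% of all genes did. The median remained -0.21. They were Atp5a1, Atp5b, Atp5g1, Cox5b, Cox7a2, Ndufa10, Ndufb10, Ndufb3, Ndufb7, Ndufv1, Uqcr11, Uqcrc1 and Uqcrfs1. Atp5b, at 3120 and 2989 CPM in libraries 1 and 3, fell by 0.30 ± 0.05 (SE; edgeR adjusted p = 0.000629), and Atp5a1, at 2881 and 2768 CPM, fell by 0.30 ± 0.05 (SE; edgeR adjusted p = 0.000693). Ndufb7, at 161 and 158 CPM, fell by 0.46 ± 0.10 (SE; edgeR adjusted p = 0.00471). Each of these lies below every control value given above. With length and GC correction as well, 5 members were called (Atp5a1, Atp5b, Atp5g1, Cycs and Ndufa10; 3.6% of all genes were), and the median was -0.08. Without libraries 2 and 3 of the Ang(1-7) group, both of which held neural markers, the first alone gave 3 calls (Atp5a1, Atp5b and Ndufb10; 1.73% of all genes were called lower), its spread being taken as that of the controls.

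The supporting lists had 0 called in either Ang(1-7) comparison in edgeR with all libraries. Unadjusted p-values under 0.05 numbered 1 over all lists against PA/OA (Sdhaf4, a complex II assembly factor, 0.50 ± 0.20, and 0.33 ± 0.16 without the second library, SE). Against control they numbered 3 of 39 among assembly factors, 0 of 17 in the tricarboxylic acid cycle list, 1 of 9 among biogenesis regulators, 3 of 7 among carriers and 7 of 22 among import genes, beside the 14.9% of all genes given above. The lowest in each of these lists were Cox14 (-0.66 ± 0.22), Idh2 (-0.16 ± 0.11), Tfb1m (0.67 ± 0.24), Ucp2 (1.33 ± 0.36) and Timm23 (-0.42 ± 0.11, all SE), with edgeR adjusted p-values from 0.173 to 0.503.

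Without the second library the same genes had -0.43 ± 0.10 (Cox14), -0.22 ± 0.09 (Idh2), 0.68 ± 0.27 (Tfb1m), 1.35 ± 0.35 (Ucp2) and -0.35 ± 0.09 (Timm23, all SE) against control, and Cox14, Ucp2 and Timm23 were called. Calls by list were then 2 of 39 assembly factors lower, 1 of 17 tricarboxylic acid cycle genes lower, 0 of 9 biogenesis regulators, 1 of 7 carriers lower and 1 higher, and 7 of 22 import genes lower. Over all genes 4.96% were called lower and 5.22% higher. Against PA/OA edgeR called 0 genes of these lists without that library as well, with 3 at an unadjusted p under 0.05.

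Side by side against control, values are given for PA/OA, for Ang(1-7) with all 3 libraries and for Ang(1-7) without the second (all with SE). Cox7a2 had -0.36 ± 0.08, -0.15 ± 0.13 and -0.30 ± 0.08. Uqcr11 had -0.33 ± 0.09, -0.75 ± 0.31 and -0.44 ± 0.11. Cycs had -0.23 ± 0.06, -0.08 ± 0.12 and -0.21 ± 0.07. Atp5e had -0.40 ± 0.11, -0.44 ± 0.24 and -0.20 ± 0.12, and Atp5k had -0.41 ± 0.11, -0.63 ± 0.44 and -0.21 ± 0.12. Sdha had -0.05 ± 0.07, -0.07 ± 0.09 and -0.06 ± 0.07. With all 3 libraries none of these 6 was called for Ang(1-7) in edgeR, 1 (Uqcr11) had an unadjusted p under 0.05, and DESeq2 called 0 of them; without the second library only Cox7a2 and Uqcr11 were, Cycs lying just outside (edgeR adjusted p = 0.0536). These comparisons share their controls, so likeness between them is no separate evidence.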

How the data were processed

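Total RNA of AML12 cells was isolated with Qiazol and miRNeasy columns (per the labels' protocols). What the authors deposited are read counts (whole numbers) by RefSeq transcript, 1 table for each pair of groups. The submitters' processing notes list bcl2fastq, HISAT2 (2.2.5) and HTSeq (0.11.2), and a human build although the transcripts are mouse; the annotation and how shared reads were counted: not given in the sources used here. Each column was matched to a sample by name. Counts of listed transcripts were summed per symbol; the tables hold only part of the transcripts of many genes, and totals were 24588312 to 28704499 per library and table.

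edgeR 4.0.16 (TMM, quasi-likelihood, filterByExpr) was fitted per table on its 2 groups, with Benjamini-Hochberg adjustment over all genes tested; DESeq2 1.42.0 and limma 3.58.1 (voom) were alternatives, with R 4.3.3. Other fits changed the filter, the transcripts, the samples, the replicate block, or corrected for transcript length and GC content from GENCODE. Scripts were tested on simulated data. Libraries of a group differed by more than sampling noise (chi-square per degree of freedom 19.7 to 254). The members and gene lists were chosen with earlier results of these data known. By rule, each member was named with its level (1 is not reported here), with statistics for members called or with non-overlapping groups and the highest of each complex; of each list, up to 3 called genes or the 1 of lowest p were named.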

Additional observations from a re-analysis of the deposited data

How the results depend on the processing

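With PA/OA against control, DESeq2 called 16 members, a fit of all 9 samples 0, and the length and GC correction 3 (median -0.07). That correction with the replicate block called 2 (median -0.07), and 170 of all genes in either direction. Leaving out 1 library gave 1 to 11 calls and medians from -0.20 to -0.14. The 11 calls came without PA/OA 1, where 397 of all genes were called in either direction. The 9 members called kept their sign in all 17 alternatives, and Cox7a2 was called in 14 of them and Ndufb10 in 6. With Ang(1-7) against control, DESeq2 called 2, the fit of all 9 samples 1, and leaving out 1 library gave 0 to 13 calls and medians from -0.32 to -0.21; of the alternatives chosen after seeing the data, leaving out Ang(1-7) 2 and 3 gave 3 calls, and leaving out Ang(1-7) 2 with length and GC correction gave 5 (median -0.08). With Ang(1-7) against PA/OA no alternative called a member.

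The labels do not say whether same-numbered samples shared more than a number. Deviations of same-numbered samples correlated at -0.0354 to 0.0343 across genes, which cannot show that nothing was shared. With the replicate block 9 members were called for PA/OA against control, Cox5b in place of Ndufb10. That fit called 303 of all genes in either direction. Genes read from few counts, mostly those with several transcripts, have intervals too wide to show changes of the size seen here.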
